A study of Rattus norvegicus with 18 samples.

Results

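The cytochrome P450 enzymes of families 1 to 3 were followed in rat liver RNA, as the 36 genes of 33657 in the deposited table whose symbol begins with Cyp1, Cyp2 or Cyp3 and a subfamily letter. They comprised 3 genes of family 1, 29 of family 2 and 4 of family 3. All libraries came from liver of male rats aged 18 weeks, in 6 groups of 3 libraries each. One group of obese rats received orlistat, a lipase inhibitor used against obesity, as the positive control. The obese control received water, plantain was given to 3 further obese groups as a low, a medium or a high dose, and the normal control was healthy and received water. The labels used here leave out the strain, how obesity was brought about, the plantain preparation and the dose amounts, so the doses are known only by their order.

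These enzymes sit in the membrane of the endoplasmic reticulum of hepatocytes, most of all near the central vein, and oxidise drugs, steroids, fatty acids and other foreign or internal compounds. Electrons reach them from NADPH through the reductase Por, and each enzyme holds a heme. Family 1 is induced through the aryl hydrocarbon receptor, subfamily 2B through the receptor CAR (Nr1i3) and subfamily 3A through PXR (Nr1i2). In rats several members differ between the sexes under the control of growth hormone, with Cyp2c11 as the main male form and Cyp2c12 as the main female form.

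Values are FPKM, fragments per kilobase of gene scaled to the size of the library, so levels can be set side by side between genes. Log2 changes were fitted by limma on log2(FPKM + 1) over the 11945 genes that reached 1 FPKM in 3 or more libraries, are given ± 1 SE, and carry Benjamini-Hochberg adjusted p-values over those genes with a threshold of 0.05. Group levels are mean ± SD of 3 libraries. Recovered read totals ran from 16.6 M to 26.2 M per library, and the tested members had 106 to 79140 reads per library. Libraries of a group differed beyond counting: over 18 within-group pairs, the chi-square of genes with at least 50 reads had a median of 0.665 to 1.13, where counting alone gives 0.455, and a mean of 3.12 to 6.75, where counting alone gives 1. The medium-dose replicate 1 stood furthest from its group, with medians of 1.13 and 0.993 against the other 2 medium-dose libraries, and without it 9 members rose and 5 fell at the medium dose (10 and 5 with it). The labels do not say whether the 3 libraries of a group are separate animals, so p-values rest on library-to-library spread alone, and this may be technical. The lymphocyte markers summed to no more than 2.51 FPKM per library.

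Of the 36 members, 26 reached a mean of 1 FPKM in at least 1 group, and 10 did not and are taken as not expressed. Those 10 were Cyp2u1, Cyp2s1, Cyp2c24, Cyp1b1, Cyp2b12, Cyp2w1, Cyp2b21, Cyp2j16, Cyp2b15 and Cyp2g1. Several of them are best known from other tissues, such as Cyp2g1 of the olfactory lining and Cyp2s1 of epithelia, and Cyp2b15 and Cyp2g1 were listed at 0 in all 18 libraries. Cyp2u1 lay just below the limit, with its highest group mean of 0.894 FPKM at the medium dose. Cyp1a1, the inducible oxidase of polycyclic aromatic compounds, lay just above it with 1.06 ± 0.0759 FPKM at the medium dose. Elsewhere Cyp1a1 was at 0.373 ± 0.116 FPKM with orlistat, 0.257 ± 0.0135 FPKM in the obese control, 0.397 ± 0.0919 FPKM at the low dose, 0.617 ± 0.0444 FPKM at the high dose and 0.809 ± 0.191 FPKM in the normal control. It reached 1 FPKM in only 2 libraries, so it was not tested, and 25 members were.

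Levels spanned a wide range, and 15 members averaged at least 100 FPKM. Cyp2c7 had the highest mean of all members in each of the 5 obese groups, with 2041 ± 27.0 FPKM in the obese control. In the normal control Cyp2c11 stood first at 1338 ± 22.7 FPKM and Cyp2c7 second at 1226 ± 12.3 FPKM. The lowest of the 26 expressed members were the vitamin D 25-hydroxylase Cyp2r1, with group means of 3.54 to 4.32 FPKM, and Cyp1a1. Among the tested members, the highest group mean was 1.13 to 4.39 times the lowest, with a median of 1.39, and passed 2-fold for Cyp3a9, Cyp2b2, Cyp2c11 and Cyp2c12. The median coefficient of variation within a group was 2.29%.

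Summed over the 36 members, the level was 9338 ± 104 FPKM with orlistat and 8472 ± 60.2 FPKM in the obese control. It was 8828 ± 59.3 FPKM at the low dose, 8277 ± 214 FPKM at the medium dose and 8445 ± 70.1 FPKM at the high dose, against 9084 ± 21.9 FPKM in the normal control. The sum made up 1.74% of all FPKM with orlistat, the highest group mean, and 1.40% in the obese control, the lowest. The deposited values carry a scale factor per library that differed between groups (1.036 ± 0.012 with orlistat, 1.028 ± 0.003 at the high dose and 0.974 ± 0.005 in the obese control), and its part in the sums was not tested. The FPKM of all genes summed to 600174 to 609662 per library in the obese control and 532688 to 535471 at the high dose. Rescaled so that every library has the same total (the scale of TPM), the sum at the high dose was 15804, against 14007 in the obese control, whereas in FPKM these groups differed by less than their SDs.

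**Figure D1:**
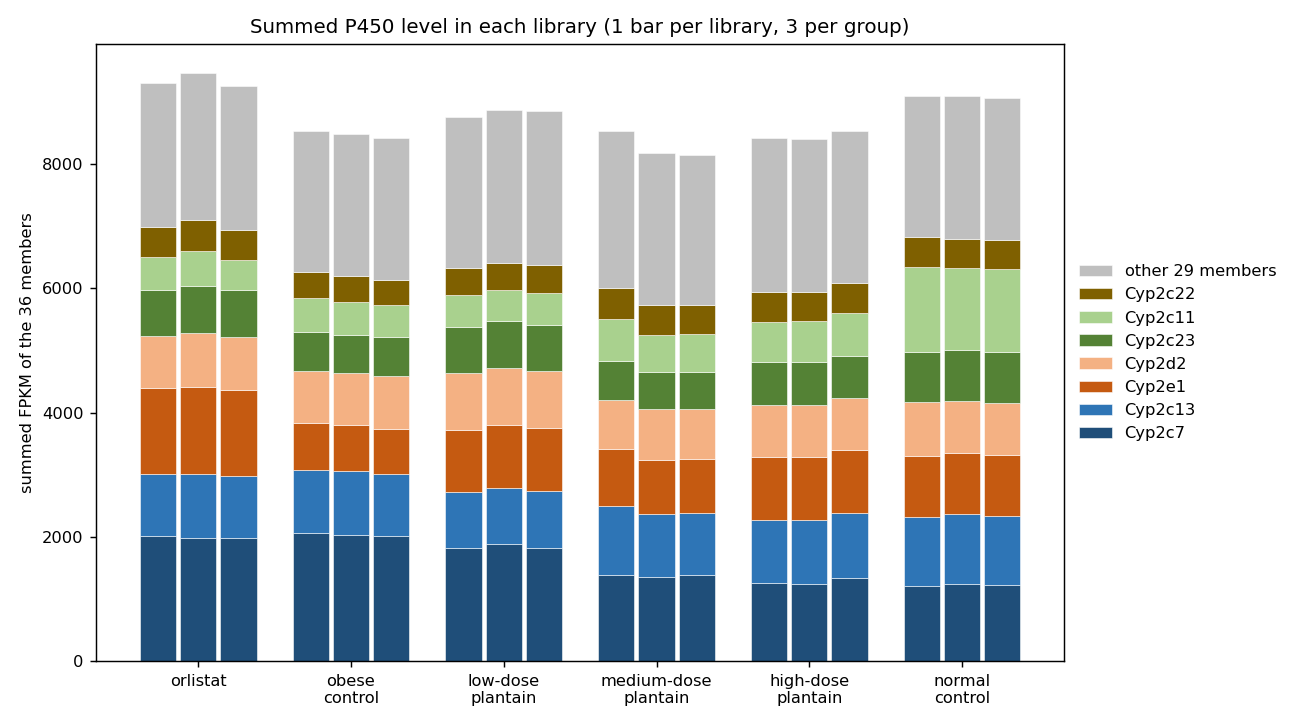
Summed FPKM of the 36 P450 members (vertical axis, linear from 0) in each of 18 libraries, 3 bars per group, split into the 7 most abundant members and the rest. Cyp2c7 (lowest segment) took 24.1% of the sum in the obese control, against 13.5% in the normal control, while Cyp2c11 (light green) took 6.22% and 14.7%.

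Subfamily 2C made up most of the sum, with 54.8% with orlistat, 58.8% in the obese control, 55.2%, 54.3% and 53.2% at the low, medium and high dose, and 58.0% in the normal control. The mix within it differed more than its total. Cyp2c7 made up 24.1% of the P450 sum in the obese control, against 13.5% in the normal control, and Cyp2c11 made up 6.22% and 14.7%. Cyp2e1 ranged from 8.81% in the obese control to 14.9% with orlistat.

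The comparison of the obese control with the normal control asked which P450 transcripts differ in untreated obesity. Cyp3a9 and the male form Cyp2c11 were much lower in the obese control, and Cyp2c7, Cyp3a23/3a1, Cyp2c6v1 and Cyp3a62 were higher. Of the 25 tested members, 7 rose and 14 fell, against 26.7% and 28.4% of all tested genes. The share that rose was near that of all genes and the share that fell was higher. On the TPM scale, where 28 members and 13304 genes passed the filter, 5 members rose and 19 fell, against 15.3% and 35.1% of all genes. The median change of the members was -0.20, and the median of all genes lay between -0.02 and 0.01 in every comparison. The members are abundant and their median SE of 0.0373 was lower than the 0.0685 of all genes. In bulk liver a lower level can mean fewer cells that express a gene or less RNA per cell, and these cannot be told apart. The summed Kupffer cell and macrophage markers were at 220.8 to 227.6 FPKM in the obese control and 129.5 to 132 FPKM in the normal control (7 of 7 rose), and the hepatocyte markers at 95380 to 97670 FPKM in the obese control, against 83380 to 88850 FPKM in the normal one (6 of 7 rose). Their part in the P450 changes was not tested. The 4 members not past the threshold were Cyp2a1, Cyp2d2, Cyp2d3 and Cyp2t1.

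**Figure D2:**
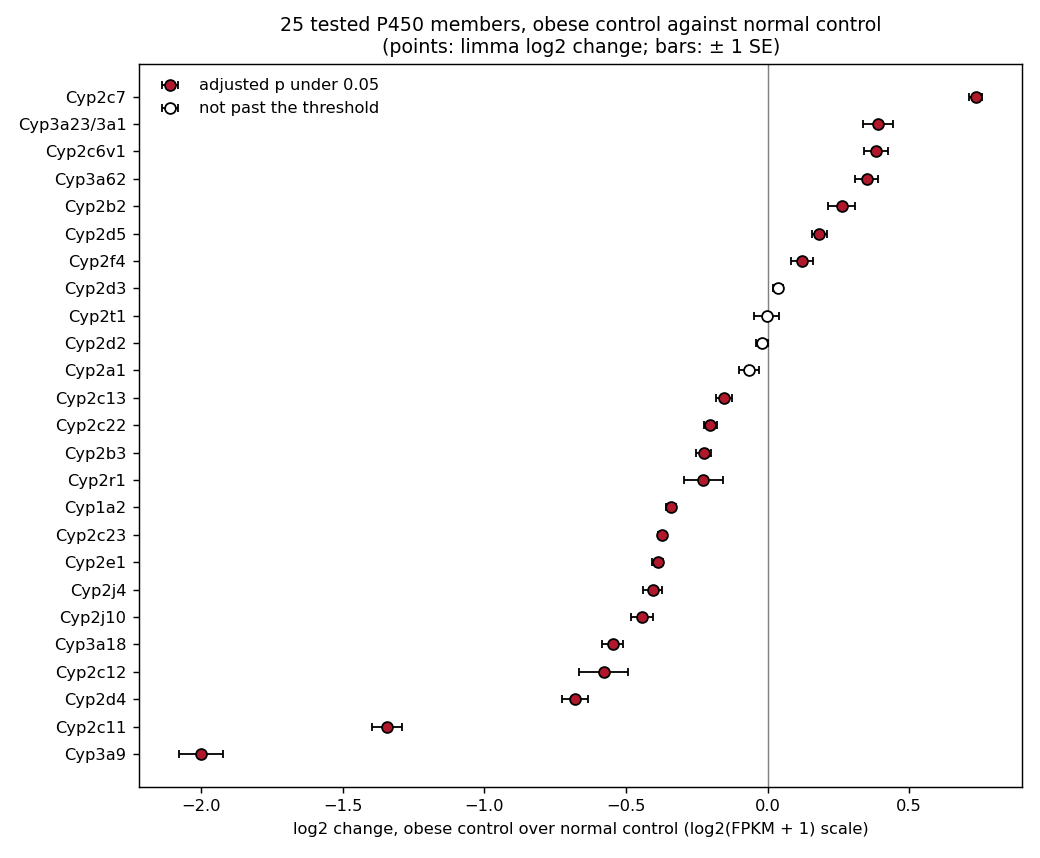
Log2 change of the 25 tested P450 members, obese control over normal control (horizontal axis, log2(FPKM + 1) scale), with points for the limma estimate and bars for ± 1 SE. Filled points passed an adjusted p of 0.05, and they run from -1.999 for Cyp3a9 to 0.73 for Cyp2c7.

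Each treatment was then set against the obese control to ask what it changed in obese liver. The 4 comparisons use the same obese control libraries and are therefore not independent. With orlistat 10 members rose and 6 fell, against 26.2% and 25.6% of all tested genes, and on the TPM scale 18 rose and 2 fell, against 38.9% and 12.1%. The highest rises were those of Cyp2e1, Cyp3a9 and Cyp1a2, and the deepest fall that of Cyp2b2. At the low dose 13 rose and 4 fell, against 18.3% and 14.8% of all genes, with Cyp2c12, Cyp1a2 and Cyp3a62 in front. At the medium dose 10 rose and 5 fell, against 21.8% and 20.1% of all genes, and on the TPM scale 16 rose and 4 fell, against 28.8% and 11.1%. Among the members tested in FPKM, Cyp2b2 and Cyp3a18 rose most there, and Cyp2c7 fell most. On the TPM scale Cyp1a1, which lay near the 1 FPKM limit and was not tested in FPKM, changed by 1.01, against 0.97 for Cyp2b2. At the high dose 12 rose and 6 fell, against 26.6% and 25.3% of all genes, and on the TPM scale 19 rose and 3 fell, against 40.2% and 11.6%. Cyp3a18, Cyp2c12 and Cyp2b2 led the rises and Cyp2c7 again the falls. In FPKM, in each of the 4 comparisons, the share of members that fell was near that of all genes and the share that rose was above it.

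The same cell markers moved with the treatments, and their part in the P450 changes was not tested. The 7 hepatocyte markers summed to 77700 to 83450 FPKM with orlistat (6 fell and 1 rose against the obese control). They summed to 87540 to 92270 FPKM at the low dose (3 fell), 87780 to 92270 FPKM at the medium dose (6 fell and 1 rose) and 86770 to 87040 FPKM at the high dose (5 fell and 1 rose), against 95380 to 97670 FPKM in the obese control. The 7 Kupffer cell and macrophage markers summed to 231.3 to 248.2 FPKM with orlistat (1 rose and 1 fell), 280.9 to 289.6 FPKM at the low dose (6 rose), 187.9 to 189.8 FPKM at the medium dose (6 fell) and 186.1 to 190.7 FPKM at the high dose (6 fell), against 220.8 to 227.6 FPKM in the obese control. Between the high and the low dose 7 of 7 of them fell, where 16.4% of all genes fell. Against the obese control 26.2% of all genes rose and 25.6% fell with orlistat. At the low, medium and high dose 18.3%, 21.8% and 26.6% of all genes rose and 14.8%, 20.1% and 25.3% fell.

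On the TPM scale the median change of all tested genes became -0.10 between the obese and the normal control, and relative to the obese control it was 0.13 for orlistat and 0.05, 0.08 and 0.14 at the low, medium and high dose. Relative to that shift the median TPM change of the 28 members tested on that scale was -0.21 for the obese against the normal control. It was 0.05 for orlistat and 0.10, 0.06 and 0.08 for the low, medium and high dose against the obese control.

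**Figure D3:**
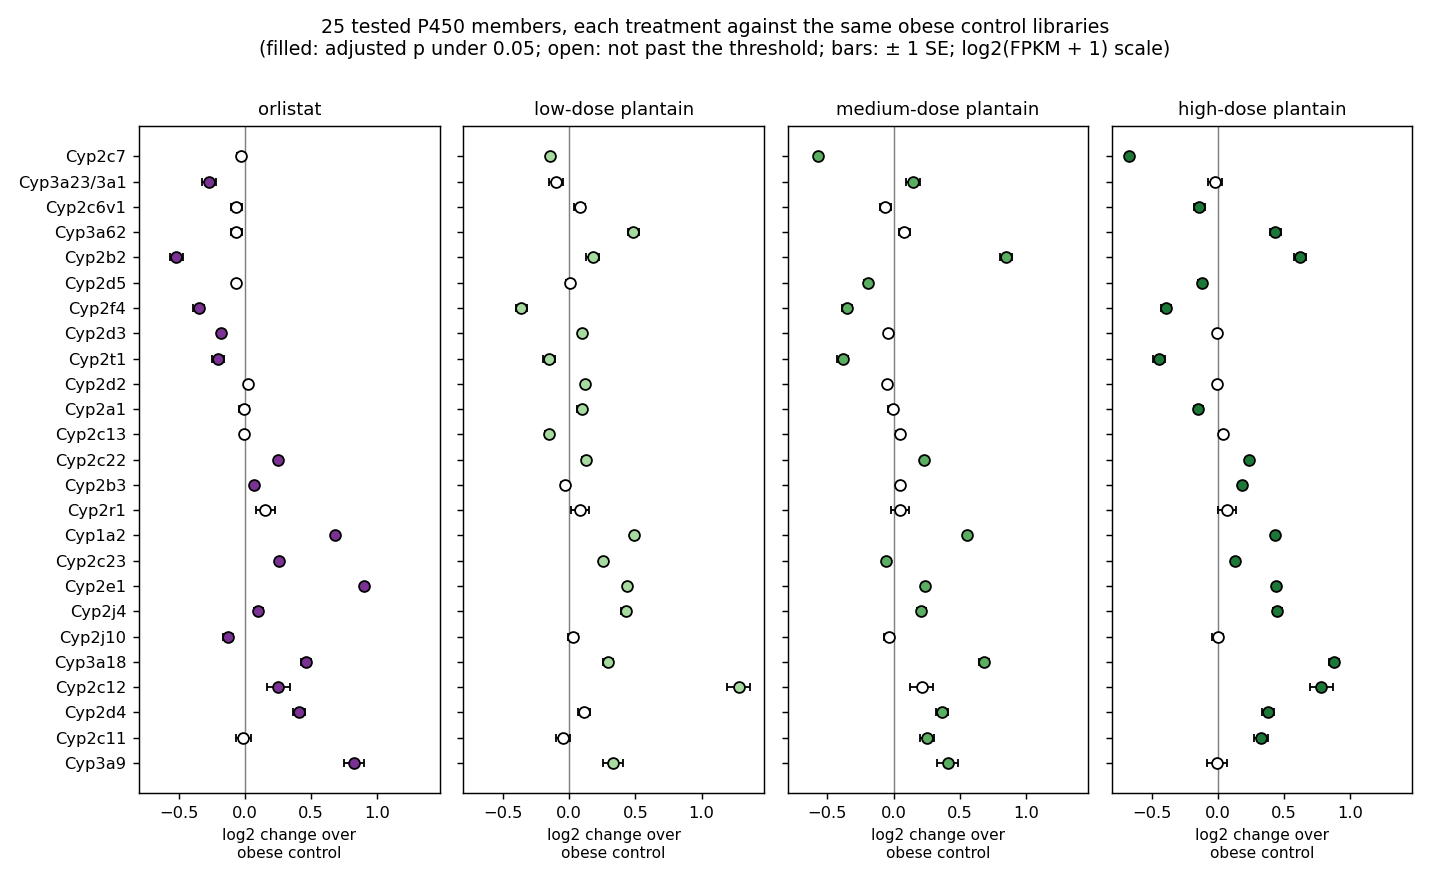
Log2 change of the 25 tested P450 members over the obese control (horizontal axes, log2(FPKM + 1) scale) for orlistat and for low-, medium- and high-dose plantain, with genes in the order of their change between obese and normal control. Filled points passed an adjusted p of 0.05, bars are ± 1 SE, and all 4 panels share the same 3 obese control libraries. Cyp1a2, Cyp2e1 and Cyp3a18 lie right of 0 in every panel and Cyp2f4 and Cyp2t1 left of it.

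Over all 6 groups 24 of the 25 members differed by limma's F-test, against 72.1% of all tested genes, the exception being Cyp2r1 (adjusted p = 0.0759). Among the 3 plantain doses 22 differed, against 38.4% of all genes, and Cyp2f4 (adjusted p = 0.663), Cyp2j10 (adjusted p = 0.397) and Cyp2r1 (adjusted p = 0.931) did not pass. Between the high and the low dose 7 rose and 11 fell, against 16.2% and 16.4% of all genes. On the TPM scale 14 rose and 5 fell, but all genes shifted too, with 30.5% higher and 6.23% lower, and relative to the all-gene median the members' median change was -0.02.

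Set against the normal control, 6 members rose and 13 fell with orlistat, against 19.8% and 24.3% of all genes. At the high dose 8 rose and 9 fell against the normal control, with 19.5% and 22.9% of all genes, and on the TPM scale 13 rose and 9 fell, against 22.5% and 15.7%. The largest gaps that remained to the normal control were again those of Cyp3a9 and Cyp2c11, at -1.17 ± 0.08 and -1.35 ± 0.05 with orlistat and at -2.004 ± 0.08 and -1.02 ± 0.05 at the high dose.

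**Figure D4:**
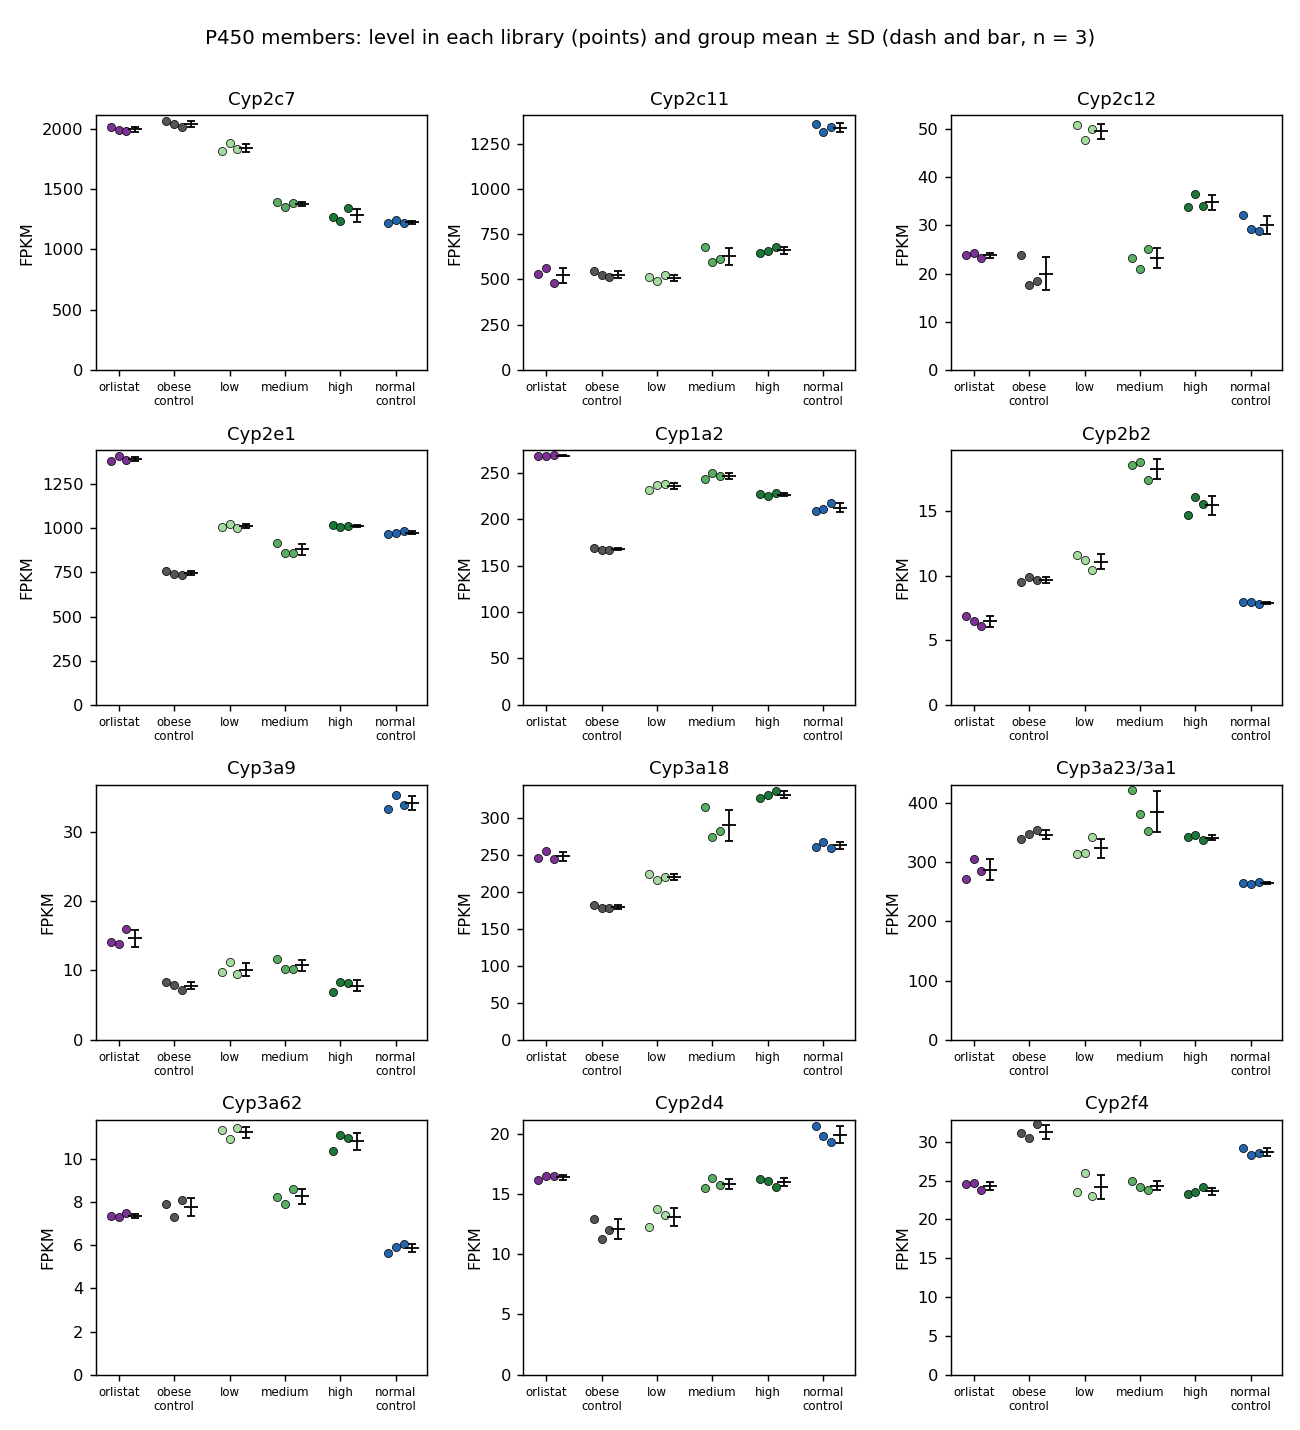
FPKM (vertical axes, linear from 0) of 12 P450 members in each library, with 1 point per library and the group mean ± SD beside it (n = 3). Cyp2c11 and Cyp3a9 stand high in the normal control and low in the 5 obese groups, and Cyp2c7 steps down over the plantain doses from the obese control towards the normal control.

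Among the members that differ between the sexes in rats, Cyp2c11 (ENSRNOG00000052810) lies on chromosome 1 at 257970345 to 258004434 in the deposited table, whose genome build no source used here names. It hydroxylates testosterone and epoxidises arachidonic acid. It was at 529, 562 and 480.2 FPKM with orlistat and 545, 523 and 512 FPKM in the obese control. At the plantain doses it was at 511, 491 and 524 FPKM (low), 679.9, 593 and 610.1 FPKM (medium) and 643, 655 and 681 FPKM (high), against 1361, 1315 and 1339 FPKM in the normal control. All 15 obese libraries lay below all normal ones, and the medium- and high-dose libraries lay above those of the obese control. The change between obese and normal control was -1.34 ± 0.05 (adjusted p = 6.98e-12). Against the obese control it rose by 0.25 ± 0.05 (adjusted p = 0.00142) at the medium and 0.32 ± 0.05 (adjusted p = 0.000112) at the high dose. With orlistat and the low dose its changes were -0.01 ± 0.05 (adjusted p = 0.885) and -0.05 ± 0.05 (adjusted p = 0.521), and the libraries overlapped.

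Cyp2c7 (ENSRNOG00000021405, chromosome 1, 148053687 to 148119857), a retinoic acid hydroxylase that is higher in female rats, ran the other way. Its values were 2018, 1989 and 1981 FPKM with orlistat and 2068, 2040.3 and 2014 FPKM in the obese control. Plantain gave 1817, 1882 and 1830.1 FPKM at the low, 1391, 1355 and 1386 FPKM at the medium and 1265, 1237 and 1341 FPKM at the high dose, and the normal control had 1218, 1240.4 and 1221 FPKM. The 3 dose groups did not overlap with the obese control. It rose by 0.73 ± 0.02 (adjusted p = 6.07e-13) in the obese over the normal control. Against the obese control it fell by 0.15 ± 0.02 (adjusted p = 0.000188) at the low, 0.57 ± 0.02 (adjusted p = 4.15e-11) at the medium and 0.67 ± 0.02 (adjusted p = 4.88e-12) at the high dose, and the low-dose call was lost under quantile normalization (-0.06, adjusted p = 0.173). The high dose remained above the normal control by 0.06 ± 0.02 (adjusted p = 0.047), with libraries that overlapped. That call was lost without the high-dose replicate 1 or 3 or without any of the normal control replicates 1, 2 and 3 (changes of 0.03 to 0.07, adjusted p = 0.0541 to 0.253).

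Cyp2c12, the female form, had 23.8, 24.3 and 23.2 FPKM with orlistat and 23.9, 17.6 and 18.5 FPKM in the obese control. It had 50.7, 47.7 and 50.1 FPKM at the low, 23.3, 21.0 and 25.2 FPKM at the medium and 33.8, 36.5 and 34.0 FPKM at the high dose, and 32.1, 29.3 and 28.8 FPKM in the normal control. The low dose stood highest and the medium dose lowest of the 3 doses. It fell by 0.58 ± 0.09 (adjusted p = 3.88e-05) in the obese against the normal control and rose by 1.28 ± 0.09 (adjusted p = 1.72e-08) at the low and 0.78 ± 0.09 (adjusted p = 2.09e-06) at the high dose. The medium dose did not pass (0.21 ± 0.09, adjusted p = 0.0629). With orlistat it rose by 0.25 ± 0.09 (adjusted p = 0.0238), but 1 obese control library lay within the orlistat range. This call was lost without the orlistat replicate 1 (0.25, adjusted p = 0.054) or 2 (0.24, adjusted p = 0.0646) or the obese control replicate 2 (0.17, adjusted p = 0.125) or 3 (0.20, adjusted p = 0.0963). Between high and low dose it fell by 0.50 ± 0.09 (adjusted p = 0.000422).

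Cyp2c13, a further male form that adjoins Cyp2c12, had 999, 1021 and 992 FPKM with orlistat and 1011, 1017 and 991 FPKM in the obese control. It had 899, 899 and 916 FPKM at the low, 1106, 1014 and 1005 FPKM at the medium and 1011, 1034 and 1050.4 FPKM at the high dose, and 1112, 1132 and 1117 FPKM in the normal control. It was lowest at the low dose and highest in the normal control. It fell by 0.15 ± 0.03 (adjusted p = 0.000242) in the obese against the normal control and by 0.15 ± 0.03 (adjusted p = 0.000536) at the low dose against the obese control.

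Cyp2a1, a testosterone hydroxylase that is higher in female rats, had 189, 182.6 and 171 FPKM with orlistat and 184, 184 and 177 FPKM in the obese control. It had 188, 194 and 200.2 FPKM at the low, 181, 179 and 184 FPKM at the medium and 167, 161 and 164 FPKM at the high dose, and 182, 195 and 193 FPKM in the normal control. The high dose lay below all other groups. Cyp2a1 rose by 0.09 ± 0.03 (adjusted p = 0.0467) at the low dose and fell by 0.15 ± 0.03 (adjusted p = 0.00221) at the high dose, a direction that turned on the TPM scale (0.03). The low-dose call was lost without any of the obese control replicates 1, 2 or 3 (0.10, 0.11 and 0.08) or the low-dose replicates 2 or 3 (0.10 and 0.07), with an adjusted p of 0.0619 to 0.177. Of the male forms set out for this work, Cyp2c11 and Cyp2c13 are in the table, and both fell in the obese control. Of the female forms Cyp2c12, Cyp2c7, Cyp2a1 and Cyp3a9, 1 rose and 2 fell, with a median of -0.32, beside 26.7% and 28.4% of all genes.

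The promoters of these 4 subfamily 2C genes are shown because the genes lie on 1 chromosome and differed in direction between the obese and the normal control, where Cyp2c7 rose and the other 3 fell. Each sequence is the 250 bases before the RefSeq start of the gene, 5′ to 3′ on the gene's strand, in the build GRCr8. Capitals mark TATAAA on either strand (TTTATA where it lies on the other strand), a motif chosen after the sequences were seen. The windows are chr1:246174966-246175215 (+ strand), chr1:247966144-247966393 (+), chr1:248677035-248677284 (-) and chr1:248787189-248787438 (-). In the deposited table the Cyp2c7 row lies far from the rows of the others, at 148053687 to 148119857, and on the - strand. The rows of Cyp2c11, Cyp2c12 and Cyp2c13 are on the same strand as their windows. Whether the Cyp2c7 window is the promoter of the measured Cyp2c7 row was not tested.
Cyp2c11: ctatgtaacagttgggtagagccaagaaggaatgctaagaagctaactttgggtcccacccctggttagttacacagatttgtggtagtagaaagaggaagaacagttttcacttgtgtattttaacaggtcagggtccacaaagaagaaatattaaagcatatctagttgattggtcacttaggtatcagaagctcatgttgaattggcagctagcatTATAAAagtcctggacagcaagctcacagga
Cyp2c7: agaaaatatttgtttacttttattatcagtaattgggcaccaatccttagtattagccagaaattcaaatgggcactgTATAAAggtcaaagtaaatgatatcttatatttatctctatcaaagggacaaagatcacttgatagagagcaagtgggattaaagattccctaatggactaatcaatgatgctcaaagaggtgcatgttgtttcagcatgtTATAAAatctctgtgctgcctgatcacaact
Cyp2c12: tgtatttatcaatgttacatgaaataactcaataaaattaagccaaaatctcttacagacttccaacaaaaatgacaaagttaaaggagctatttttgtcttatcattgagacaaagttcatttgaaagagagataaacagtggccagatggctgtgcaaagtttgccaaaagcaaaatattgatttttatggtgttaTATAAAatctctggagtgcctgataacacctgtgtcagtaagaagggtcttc
Cyp2c13: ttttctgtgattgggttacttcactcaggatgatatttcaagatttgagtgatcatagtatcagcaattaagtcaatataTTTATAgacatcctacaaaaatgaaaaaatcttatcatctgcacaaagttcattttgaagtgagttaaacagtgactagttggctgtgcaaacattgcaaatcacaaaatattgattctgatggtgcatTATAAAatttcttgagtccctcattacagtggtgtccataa

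Counting the base just before the start as -1, TATAAA began at -31 in Cyp2c11 and in Cyp2c7, with a further match in Cyp2c7 at -172. In Cyp2c12 it began at -52 and in Cyp2c13 at -41, with a match on the other strand at -170. Of the 36 members 34 had a RefSeq promoter of 300 bases (250 before to 50 after the start), and 12 of them (35.3%) held TATAAA on either strand, against 14.3% of 27457 rat promoters. The sequences shown here are among the 34, and the motif was chosen after they were seen. These shares therefore do not test an excess. The core of the aryl hydrocarbon receptor element, GCGTG on either strand, was in 6 of the 34 (17.6%), namely Cyp2b2, Cyp2t1, Cyp2r1, Cyp2u1, Cyp1b1 and Cyp2w1, and in 31.1% of all promoters. Cyp1a2 held no GCGTG in this window and Cyp1a1 had no entry. Over the 300 bases Cyp2c12 and Cyp2c13 were 65.5% identical, Cyp2c7 and Cyp2c12 57.7%, and Cyp2c11 and Cyp2c7 54.0%. The 46 pairs of 1 subfamily had a median of 51.1% and the 515 other pairs 45.9%.

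In family 1, Cyp1a2 (ENSRNOG00000016173, chromosome 8, 62451329 to 62458301), which oxidises caffeine and aromatic amines, was the only abundant member. It had 268, 269 and 269 FPKM with orlistat and 169, 167 and 167 FPKM in the obese control. It had 232, 237 and 238 FPKM at the low, 244, 249.99 and 246 FPKM at the medium and 227, 225 and 228 FPKM at the high dose, and 209, 211 and 218 FPKM in the normal control. The obese control was the lowest group, and no library of another group overlapped with it. Cyp1a2 fell by 0.34 ± 0.02 (adjusted p = 1.7e-10) in the obese against the normal control. Against the obese control it rose by 0.68 ± 0.02 (adjusted p = 1.41e-13) with orlistat, 0.49 ± 0.02 (adjusted p = 1.19e-11) at the low, 0.55 ± 0.02 (adjusted p = 2.1e-12) at the medium and 0.43 ± 0.02 (adjusted p = 2.23e-11) at the high dose. All 4 treated groups lay above the normal control in their means, and the test gave 0.34 ± 0.02 (adjusted p = 3.22e-10) for orlistat and 0.09 ± 0.02 (adjusted p = 0.000576) for the high dose.

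Cyp2e1 (ENSRNOG00000012458, chromosome 1, 213511874 to 213535542), which oxidises ethanol and acetaminophen, showed the largest rise of any member with orlistat. It had 1385, 1408 and 1386 FPKM with orlistat, against 759.6, 741 and 738 FPKM in the obese control. The plantain groups had 1006, 1024 and 1003 FPKM at the low, 918, 863 and 861 FPKM at the medium and 1017, 1009.9 and 1014 FPKM at the high dose, and the normal control had 969, 974 and 987 FPKM. The orlistat libraries stood above all others and the obese control below all others. Its change was -0.39 ± 0.02 (adjusted p = 2.72e-10) between obese and normal control and 0.90 ± 0.02 (adjusted p = 4.78e-14) between orlistat and obese control. It also rose against the obese control at the low (0.44 ± 0.02, adjusted p = 3e-10), medium (0.24 ± 0.02, adjusted p = 2.07e-07) and high dose (0.44 ± 0.02, adjusted p = 1.1e-10). The high dose was above the normal control by 0.05 ± 0.02 (adjusted p = 0.049), a call that was lost without any 1 of the 3 high-dose or 3 normal control libraries (changes of 0.05 to 0.06, adjusted p = 0.0566 to 0.133).

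Cyp2b2, the phenobarbital-inducible form of subfamily 2B, was low in all groups. It had 6.90, 6.45 and 6.06 FPKM with orlistat and 9.47, 9.92 and 9.66 FPKM in the obese control. It had 11.6, 11.2 and 10.47 FPKM at the low, 18.6, 18.8 and 17.4 FPKM at the medium and 14.7, 16.1 and 15.6 FPKM at the high dose, and 7.94, 7.96 and 7.82 FPKM in the normal control. The medium dose was highest and orlistat lowest, with no overlap between any of these groups. Cyp2b2 rose by 0.26 ± 0.05 (adjusted p = 0.000225) in the obese over the normal control and fell by 0.52 ± 0.05 (adjusted p = 2.36e-07) with orlistat. It rose by 0.18 ± 0.05 (adjusted p = 0.00922), 0.85 ± 0.05 (adjusted p = 1.18e-09) and 0.62 ± 0.05 (adjusted p = 3.02e-08) at the low, medium and high dose. Cyp2b3, a form that phenobarbital does not induce, was at 214 ± 5.57 FPKM with orlistat, 204 ± 7.20 FPKM in the obese control, 199.5 ± 4.51, 211 ± 5.33 and 232 ± 1.55 FPKM at the low, medium and high dose and 239 ± 2.33 FPKM in the normal control. Reads of close 2B copies can be split between genes, so these levels are uncertain.

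In subfamily 3A, which oxidises many drugs and steroids, the 4 members took different courses. Cyp3a23/3a1, the PXR-inducible and most abundant member, had 271, 306 and 286 FPKM with orlistat and 339, 347 and 354 FPKM in the obese control. It had 314, 315 and 342 FPKM at the low, 422, 382 and 353 FPKM at the medium and 343, 346 and 337 FPKM at the high dose, and 264, 263 and 266 FPKM in the normal control. The normal control was lowest, and the medium dose was the most spread and overlapped with the obese control. It rose by 0.39 ± 0.05 (adjusted p = 1.69e-05) in the obese over the normal control. With orlistat it fell by 0.27 ± 0.05 (adjusted p = 0.000599), a call that was lost on the TPM scale (-0.10, adjusted p = 0.0947) and under quantile normalization (-0.08, adjusted p = 0.139). The rise at the medium dose (0.15 ± 0.05, adjusted p = 0.0358) was lost without the medium-dose replicate 1 (0.08, adjusted p = 0.189) or 2 (0.15, adjusted p = 0.0657) or the obese control replicate 1 (0.13, adjusted p = 0.107) or 2 (0.15, adjusted p = 0.0731).

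Cyp3a18, a testosterone hydroxylase that is higher in male rats, had 246, 255 and 244 FPKM with orlistat and 182.8, 178 and 178 FPKM in the obese control. It had 224, 217 and 220.2 FPKM at the low, 314, 274 and 282 FPKM at the medium and 328, 331 and 336 FPKM at the high dose, and 261, 268 and 259.9 FPKM in the normal control. Over the obese control and the 3 doses the group means stood in the order of the doses, and the high dose passed the normal control. Cyp3a18 fell by 0.55 ± 0.04 (adjusted p = 5.47e-09) in the obese against the normal control and rose by 0.46 ± 0.04 (adjusted p = 5.41e-08) with orlistat. At the low, medium and high dose it rose by 0.29 ± 0.04 (adjusted p = 1.78e-05), 0.68 ± 0.04 (adjusted p = 9.46e-10) and 0.88 ± 0.04 (adjusted p = 3.54e-11). The high dose exceeded the low dose by 0.59 ± 0.04 (adjusted p = 1.45e-08) and the normal control by 0.33 ± 0.04 (adjusted p = 2.9e-06).

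Cyp3a9 (ENSRNOG00000046643, chromosome 12, 19074583 to 19114399), a steroid-oxidising member that is higher in female rats, had the highest ratio between its highest and lowest group mean of all tested members. It had 14.1, 13.8 and 16.0 FPKM with orlistat and 8.37, 7.83 and 7.24 FPKM in the obese control. It had 9.71, 11.2 and 9.41 FPKM at the low, 11.6, 10.3 and 10.3 FPKM at the medium and 6.90, 8.27 and 8.20 FPKM at the high dose, against 33.3, 35.3 and 33.9 FPKM in the normal control. All 15 obese libraries lay at or below 15.99 FPKM and the normal ones at or above 33.3 FPKM. The change was -1.999 ± 0.08 (adjusted p = 5.54e-12) in the obese against the normal control. Against the obese control it rose by 0.83 ± 0.08 (adjusted p = 3.33e-07) with orlistat, 0.33 ± 0.08 (adjusted p = 0.00385) at the low and 0.41 ± 0.08 (adjusted p = 0.000559) at the medium dose. At the high dose the libraries overlapped with those of the obese control, with a change whose 95% interval ran from -0.17 to 0.16.

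Cyp3a62, a form of gut and liver, had 7.36, 7.30 and 7.48 FPKM with orlistat and 7.90, 7.30 and 8.12 FPKM in the obese control. It had 11.3, 10.95 and 11.5 FPKM at the low, 8.26, 7.94 and 8.64 FPKM at the medium and 10.4, 11.1 and 10.98 FPKM at the high dose, and 5.67, 5.91 and 6.06 FPKM in the normal control. The low and the high dose stood above the rest. It rose by 0.35 ± 0.04 (adjusted p = 3.44e-06) in the obese over the normal control, by 0.48 ± 0.04 (adjusted p = 2.69e-07) at the low dose and by 0.43 ± 0.04 (adjusted p = 4.2e-07) at the high dose, while the medium dose did not pass (0.08 ± 0.04, adjusted p = 0.133).

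Cyp3a9 and Cyp3a62 lie in 1 neighbourhood of chromosome 12 and changed in opposite directions between the obese and the normal control, so their promoters are set side by side. Both are the 250 bases before the RefSeq start in GRCr8, 5′ to 3′ on the gene's strand, with TATAAA on the other strand in capitals, at chr12:21960161-21960410 (- strand) and chr12:21511513-21511762 (+ strand).
Cyp3a9: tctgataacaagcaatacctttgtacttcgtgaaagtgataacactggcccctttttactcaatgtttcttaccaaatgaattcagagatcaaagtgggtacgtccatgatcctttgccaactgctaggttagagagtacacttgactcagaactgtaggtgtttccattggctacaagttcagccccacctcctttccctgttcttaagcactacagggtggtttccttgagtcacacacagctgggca
Cyp3a62: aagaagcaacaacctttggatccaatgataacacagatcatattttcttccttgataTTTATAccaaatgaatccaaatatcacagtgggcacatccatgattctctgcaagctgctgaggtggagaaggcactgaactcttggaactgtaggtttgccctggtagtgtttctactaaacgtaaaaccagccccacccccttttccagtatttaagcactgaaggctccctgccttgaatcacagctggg
The 300-base windows were 66.6% identical. Cyp3a62 held 1 match at -193 and Cyp3a9 none.

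Of the 4 arachidonic acid epoxygenases tested, Cyp2c11, Cyp2c23, Cyp2j4 and Cyp2j10, all 4 fell in the obese against the normal control, with a median of -0.42, where 14 of the 25 members and 28.4% of all tested genes fell. Cyp2c23 had 741, 749 and 761 FPKM with orlistat and 628, 624 and 630.4 FPKM in the obese control. It had 743, 753 and 746 FPKM at the low, 617, 603 and 592 FPKM at the medium and 688, 688 and 687 FPKM at the high dose, and 812, 812 and 816 FPKM in the normal control. All obese groups lay below the normal control. Cyp2c23 fell by 0.37 ± 0.01 (adjusted p = 5.88e-12) in the obese control and rose against it by 0.26 ± 0.01 (adjusted p = 1.05e-09) with orlistat, 0.25 ± 0.01 (adjusted p = 2.76e-09) at the low and 0.13 ± 0.01 (adjusted p = 2.14e-06) at the high dose. At the medium dose it fell by 0.05 ± 0.01 (adjusted p = 0.00702), a direction that turned on the TPM scale (0.04) and with voom on recovered reads (0.0031).

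Cyp2j4 had 27.4, 28.1 and 27.2 FPKM with orlistat and 26.4, 24.9 and 25.7 FPKM in the obese control. It had 35.2, 35.0 and 34.3 FPKM at the low, 30.1, 29.6 and 29.7 FPKM at the medium and 37.8, 34.3 and 34.4 FPKM at the high dose, and 35.0, 33.6 and 34.3 FPKM in the normal control. The low and high doses overlapped with the normal control, and the obese control lay below all other groups. It fell by 0.40 ± 0.03 (adjusted p = 6.15e-08) in the obese against the normal control, and rose by 0.43 ± 0.03 (adjusted p = 1.04e-07), 0.21 ± 0.03 (adjusted p = 0.000133) and 0.45 ± 0.03 (adjusted p = 2.53e-08) at the low, medium and high dose. With orlistat its rise of 0.10 ± 0.03 (adjusted p = 0.0226) was lost without the orlistat replicate 2 (0.09, adjusted p = 0.0787) or the obese control replicate 2 (0.08, adjusted p = 0.0983). Cyp2j10 was at 20.8 to 25.7 FPKM in all obese libraries and at 33.4, 33.0 and 32.2 FPKM in the normal control. It fell by 0.44 ± 0.04 (adjusted p = 1.1e-07) in the obese control, and its further fall of 0.13 ± 0.04 (adjusted p = 0.0129) with orlistat turned on the TPM scale (0.04) and was lost without the orlistat replicate 1 (-0.10, adjusted p = 0.0711) or the obese control replicate 1 (-0.11, adjusted p = 0.0554).

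Subfamily 2D is the counterpart of the human debrisoquine hydroxylase. Cyp2d2, its most abundant member, stayed between 794 and 918 FPKM, rose by 0.12 ± 0.02 (adjusted p = 0.000257) at the low dose and passed in no other comparison with the obese control. Cyp2d4, which is also found in brain, had 16.1, 16.5 and 16.5 FPKM with orlistat and 12.9, 11.3 and 12.0 FPKM in the obese control. It had 12.3, 13.8 and 13.2 FPKM at the low, 15.5, 16.3 and 15.7 FPKM at the medium and 16.2, 16.1 and 15.6 FPKM at the high dose, and 20.6, 19.8 and 19.3 FPKM in the normal control. Every obese library lay below every normal one. Cyp2d4 fell by 0.68 ± 0.05 (adjusted p = 4.4e-09) in the obese against the normal control and rose by 0.41 ± 0.05 (adjusted p = 1.89e-06) with orlistat, 0.37 ± 0.05 (adjusted p = 9.64e-06) at the medium and 0.38 ± 0.05 (adjusted p = 5.05e-06) at the high dose.

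Cyp2d3 and Cyp2d5 share more of their promoters than any other same-subfamily pair measured here (74.0%), which does not tell how alike their transcripts are. Reads of close 2D copies can be split between genes, but the likeness of the transcripts was not measured. Cyp2d3 had 283, 282 and 294 FPKM with orlistat and 321, 325 and 326 FPKM in the obese control. It had 341, 351 and 350.0 FPKM at the low, 310.2, 316 and 317 FPKM at the medium and 324, 320.3 and 325 FPKM at the high dose, and 316, 317 and 316 FPKM in the normal control. Orlistat was the lowest group. Its fall of 0.18 ± 0.02 (adjusted p = 5.04e-07) with orlistat was lost on the TPM scale (-0.0095, adjusted p = 0.792) and turned under quantile normalization (0.04), and it rose by 0.10 ± 0.02 (adjusted p = 0.000463) at the low dose. Cyp2d5 had 341, 336 and 359.7 FPKM with orlistat and 363, 362 and 359.6 FPKM in the obese control. At the doses Cyp2d5 had 354, 370.2 and 364 FPKM (low), 307, 321 and 321 FPKM (medium) and 335, 341 and 322 FPKM (high), against 318, 316 and 321 FPKM in the normal control. The medium dose and the normal control had the lowest means. Cyp2d5 rose by 0.18 ± 0.03 (adjusted p = 3.63e-05) in the obese over the normal control, which was lost on the TPM scale (0.06, adjusted p = 0.2). It fell by 0.19 ± 0.03 (adjusted p = 3.85e-05) at the medium and by 0.12 ± 0.03 (adjusted p = 0.00178) at the high dose, the last of which turned on the TPM scale (0.06).

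Of the other members of subfamily 2C, Cyp2c6v1, a drug-oxidising form of both sexes, had 342, 357 and 313 FPKM with orlistat and 351, 357 and 349 FPKM in the obese control. It had 373, 379 and 366 FPKM at the low, 345, 347 and 319.8 FPKM at the medium and 332, 309 and 317 FPKM at the high dose, and 267, 277 and 265 FPKM in the normal control. All obese libraries lay above the normal ones. It rose by 0.38 ± 0.04 (adjusted p = 1.31e-06) in the obese over the normal control and fell by 0.14 ± 0.04 (adjusted p = 0.0104) at the high dose, a direction that turned on the TPM scale (0.04). Cyp2c22 was at 487 ± 10.4 FPKM with orlistat, 408 ± 4.03 FPKM in the obese control, 445 ± 3.98, 481 ± 18.9 and 481 ± 4.34 FPKM at the low, medium and high dose and 470.0 ± 6.51 FPKM in the normal control. It fell by 0.20 ± 0.02 (adjusted p = 2.64e-06) in the obese against the normal control. It rose against the obese control by 0.25 ± 0.02 (adjusted p = 2.71e-07) with orlistat and by 0.12 ± 0.02 (adjusted p = 0.000738), 0.23 ± 0.02 (adjusted p = 1.01e-06) and 0.24 ± 0.02 (adjusted p = 6.24e-07) at the low, medium and high dose.

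Cyp2f4 and Cyp2t1 were the members that fell with every treatment. Cyp2f4, which oxidises naphthalene and is best known from lung, had 24.6, 24.7 and 23.8 FPKM with orlistat and 31.2, 30.5 and 32.3 FPKM in the obese control. It had 23.5, 26.01 and 23.0 FPKM at the low, 24.98, 24.2 and 23.8 FPKM at the medium and 23.3, 23.5 and 24.1 FPKM at the high dose, and 29.3, 28.3 and 28.5 FPKM in the normal control. The treated groups lay below both controls. It fell by 0.35 ± 0.04 (adjusted p = 1.89e-06) with orlistat and by 0.36 ± 0.04 (adjusted p = 2.9e-06), 0.35 ± 0.04 (adjusted p = 2.82e-06) and 0.39 ± 0.04 (adjusted p = 5.88e-07) at the low, medium and high dose. Its rise of 0.12 ± 0.04 (adjusted p = 0.0144) in the obese over the normal control was lost on the TPM scale (0.0018, adjusted p = 0.977), with voom (0.07, adjusted p = 0.0959) and without the obese control replicate 3 (0.10, adjusted p = 0.0663).

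Cyp2t1 had 14.2, 15.4 and 15.4 FPKM with orlistat and 17.2, 17.3 and 17.6 FPKM in the obese control. It had 15.3, 15.1 and 16.2 FPKM at the low, 13.6, 12.3 and 13.3 FPKM at the medium and 12.5, 12.9 and 12.2 FPKM at the high dose, and 16.8, 18.1 and 17.4 FPKM in the normal control. The controls overlapped, and the high dose had the lowest mean. Cyp2t1 fell by 0.38 ± 0.04 (adjusted p = 3.97e-06) at the medium and 0.44 ± 0.04 (adjusted p = 5.74e-07) at the high dose. The falls with orlistat (-0.20 ± 0.04, adjusted p = 0.00118) and at the low dose (-0.15 ± 0.04, adjusted p = 0.0132) were lost on the TPM scale for orlistat (-0.04, adjusted p = 0.412) and without the low-dose replicate 2 for the low dose (-0.13, adjusted p = 0.0559). Cyp2r1 fell by 0.23 ± 0.07 (adjusted p = 0.0108) in the obese against the normal control, which was lost without the normal control replicate 1 (-0.18, adjusted p = 0.0553), and passed against the obese control with no treatment.

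By position in the deposited table, 20 of the 36 members lay on chromosome 1, 5 on chromosome 12, 4 on chromosome 7, 3 on chromosome 5, 2 on chromosome 8 and 1 each on chromosomes 2 and 6. The largest neighbourhood, on chromosome 1 from 82595211 to 83969559, held 9 members, of which Cyp2b2, Cyp2b3, Cyp2a1, Cyp2f4 and Cyp2t1 were expressed and Cyp2s1, Cyp2b12, Cyp2b21 and Cyp2g1 were not. At the high dose its members Cyp2b2 and Cyp2b3 rose against the obese control while Cyp2a1, Cyp2f4 and Cyp2t1 fell, the fall of Cyp2a1 turning on the TPM scale. A neighbourhood of 5 members on chromosome 1 from 257970345 to 259287684 held Cyp2c11, Cyp2c24, Cyp2c12, Cyp2c13 and Cyp2c22, and Cyp2c24 was not expressed. The 4 members of subfamily 2D adjoined each other on chromosome 7 from 123599266 to 123655896.

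The electron donor of these enzymes was lowest in the obese control. Por had 169 ± 3.38 FPKM with orlistat, 108 ± 1.29 FPKM in the obese control, 159.6 ± 0.385, 184 ± 9.52 and 203 ± 2.14 FPKM at the low, medium and high dose and 323 ± 2.08 FPKM in the normal control. It fell by 1.57 ± 0.03 in the obese against the normal control and rose against the obese control by 0.64 ± 0.03 with orlistat and by 0.56 ± 0.03, 0.76 ± 0.03 and 0.90 ± 0.03 at the low, medium and high dose. Alas1, which makes the starting compound of heme, fell by 1.00 ± 0.03 in the obese control and rose by 0.88 ± 0.03 with orlistat and 0.54 ± 0.03 at the high dose, while the low dose gave -0.06 ± 0.03. Of the 14 genes of electron donation and heme supply, 3 rose and 6 fell in the obese against the normal control (median -0.05), where 26.7% of all genes rose and 28.4% fell. With the high dose 7 rose and 2 fell against the obese control (median 0.06), where 26.6% of all genes rose and 25.3% fell. With orlistat 6 rose and 5 fell (median 0.05), where 26.2% of all genes rose and 25.6% fell. At the low dose 4 rose and 2 fell (median 0.07), where 18.3% and 14.8% of all genes did. At the medium dose 6 rose and 4 fell (median 0.04), where 21.8% and 20.1% of all genes did.

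Of 10 tested xenobiotic receptors and partners, 2 rose and 7 fell in the obese against the normal control, with a median of -0.36, where 26.7% of all genes rose and 28.4% fell. Arnt, the partner of the aryl hydrocarbon receptor, fell by 1.12 ± 0.04 and Nr1i2 by 0.41 ± 0.02, while the receptor Ahr rose by 0.60 ± 0.04. Against the obese control Arnt rose by 0.99 ± 0.04 with orlistat and by 0.51 ± 0.04, 0.88 ± 0.04 and 0.98 ± 0.04 at the low, medium and high dose. The 10 genes as a set were mixed, with 5 rises and 5 falls with orlistat (median 0.04), where 26.2% of all genes rose and 25.6% fell. At the low, medium and high dose 5, 3 and 3 rose and 1, 2 and 3 fell (medians 0.03, 0.02 and -0.02). Of all genes 18.3%, 21.8% and 26.6% rose there and 14.8%, 20.1% and 25.3% fell. Of 11 genes of growth hormone signalling, 7 rose and 2 fell in the obese against the normal control (median 0.27). Against the obese control 5 rose and 6 fell with orlistat (median -0.18), where 26.2% of all genes rose and 25.6% fell. At the low dose 2 rose and 6 fell (median -0.22), where 18.3% and 14.8% of all genes did. The medium dose gave 2 rises and 7 falls (median -0.28), where 21.8% and 20.1% of all genes did. The high dose gave 3 rises and 6 falls (median -0.10), where 26.6% of all genes rose and 25.3% fell. Among the growth hormone genes Onecut1, a liver transcription factor, fell by 2.04 ± 0.08 in the obese control. Cux2, a repressor that is higher in female rat liver, rose there by 1.02 ± 0.08. At the high dose Onecut1 rose by 1.07 ± 0.08 and Cux2 fell by 0.99 ± 0.08 against the obese control.

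Markers of the pericentral zone, where most of these enzymes lie, were set beside those of the periportal zone. In the obese against the normal control 26.7% of all genes rose and 28.4% fell, and with orlistat against the obese control 26.2% and 25.6%. Against the obese control the shares were 18.3% and 14.8% at the low, 21.8% and 20.1% at the medium and 26.6% and 25.3% at the high dose. Of 9 tested pericentral genes that are not P450s, 2 rose and 2 fell in the obese against the normal control (median -0.0023), and of 10 periportal genes 2 rose and 8 fell (median -0.30). With orlistat 3 pericentral genes rose and 4 fell against the obese control (median -0.17), and 10 of 10 periportal genes rose (median 0.40). At the low dose 1 pericentral gene rose and 2 fell (median 0.05), and 6 periportal genes rose and 2 fell (median 0.17). At the medium dose 0 pericentral genes rose and 4 fell (median -0.16), and 6 periportal genes rose and 3 fell (median 0.16). At the high dose 2 pericentral genes rose and 5 fell (median -0.17), and 7 periportal genes rose and 1 fell (median 0.21). The summed endothelial markers were lowest in the normal control, at 40.59 to 41.04 FPKM, against 54.02 to 56.05 FPKM in the obese control. They were at 79.38 to 80.45 FPKM with orlistat. At the low, medium and high dose they were at 75.45 to 77.3, 77.84 to 79.04 and 90.63 to 91.18 FPKM. Their part in the P450 changes was not tested.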

How the data were processed

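Liver RNA of 18 libraries in 6 groups of 3 was analysed. Per the labels' protocols, tissue was flash-frozen and libraries were made from 1 µg of RNA with the NEBNext Ultra kit. The submitters' processing notes name CASAVA 1.7, Bowtie 0.12.2 and the mouse build mm8, although the table carries rat Ensembl identifiers. No source used here names the counter, the annotation, the use of strand or the build of the table's coordinates. The authors deposited FPKM per gene. In each library 100% of the values were whole multiples of 1 read (tolerance 0.001), from which reads and a scale factor per library were recovered.

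The main test was limma 3.58.1 in R 4.3.3 on log2(FPKM + 1), with 1 fit of all 6 groups, a mean-variance trend, two-sided tests and Benjamini-Hochberg adjustment over the 11945 genes that reached 1 FPKM in 3 or more libraries. The threshold was 0.05. An exact permutation test of 3 against 3 cannot go below p = 0.1, so none was used. The fit was tested on simulated data. Every expressed member is named with its level. Library values are given for 20 members: those among the 5 largest called changes in either direction, without overlap of the groups, in any of the 5 comparisons that involve the obese control, and the most abundant member of each family. Context genes are at most 4 per list, by smallest adjusted p between obese and normal control. The P450 members and all gene lists were chosen with earlier results of these data known. Reads of near-identical copies in subfamilies 2B, 2C, 2D and 3A may have been split between genes. Alternatives were a pseudocount of 0.1, no filter, TPM, quantile normalization, voom on the recovered reads, a replicate block, only the groups compared, and leaving out each library. Same-numbered libraries did not deviate together (0 of 45 correlations were over 0.1), so the numbers were not taken as pairs.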

Additional observations from a re-analysis of the deposited data

How the results depend on the processing

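For the 141 P450 changes that were called, alternatives gave 1833 values, of which 1737 kept their direction and their side of the threshold, 80 lost the call and 16 turned. Changes not called in the main test are not in this tally, so calls gained under an alternative show only in the counts. The TPM scale moved most counts: 18 members rose and 2 fell with orlistat against the obese control, 16 rose at the medium dose, 19 rose and 3 fell at the high dose, 13 rose at the high dose against the normal control, and 14 rose and 5 fell between high and low dose. Under quantile normalization 3 fell with orlistat and 5 between high and low dose, and voom gave 3 falls at the high dose against the obese control and 7 between high and low dose. Here and below, counts under settings other than TPM stand without the share of all genes. They show how stable the calls were and cannot tell a shift of the members from a shift of all genes. In TPM the P450 sums were 17369 with orlistat, 14007 in the obese control, 15032, 14607 and 15804 at the low, medium and high dose and 16369 in the normal control, a different unit from FPKM. Changes that turned on the TPM scale were those with orlistat of Cyp2j10 (0.0363), at the medium dose of Cyp2c23 (0.0394) and at the high dose of Cyp2d5 (0.0586), Cyp2c6v1 (0.037) and Cyp2a1 (0.0304). Between high and low dose they were Cyp2d2 (0.0059), Cyp2c23 (0.0159), Cyp2d5 (0.0122), Cyp2d3 (0.033) and Cyp1a2 (0.0785). Of all these only Cyp1a2 passed the threshold in the turned direction (limma on TPM, adjusted p = 0.0254), so its called fall became a called rise. Quantile normalization turned Cyp2d3 with orlistat (0.0386) and, between high and low dose, Cyp2d5 (0.0015), Cyp2d3 (0.0077) and Cyp1a2 (0.0428), and voom turned Cyp2c23 at the medium dose (0.0031) and Cyp1a2 between high and low dose (0.0148). The cause was not tested.

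Leaving out 1 library at a time gave 6 to 7 rises and 14 falls in the obese against the normal control, and against the obese control 8 to 9 and 5 to 7 with orlistat, 12 to 14 and 3 to 4 at the low, 9 to 10 and 5 to 6 at the medium and 12 and 6 at the high dose. Against the normal control it gave 6 to 7 rises and 13 to 14 falls with orlistat and 6 to 7 and 9 to 10 at the high dose, and between high and low dose 7 and 10 to 11. Over the 6 groups 24 to 25 members differed and over the 3 doses 22. With the replicate number as a block, 12 members rose at the low dose, 9 rose and 6 fell at the medium dose, and 6 rose at the high dose against the normal control, with the other counts as without the block. The labels do not say what the numbers share, and same-numbered libraries correlated from -0.0925 to 0.0663, with a median of -0.0194. Depth limits the members under 1 FPKM, and with 3 libraries a group no outlier test was made.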

Other observations

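Rows outside the P450 symbols, chosen after their values were seen, carried related transcripts. LOC108348266, which the deposited table describes as cytochrome P450 2B1, the phenobarbital-inducible partner of Cyp2b2, lies there on chromosome 7 at 99142450 to 99181783. The 2B members lie on chromosome 1. LOC108348266 was at 2.76 ± 0.119 FPKM with orlistat and 0.945 ± 0.175 FPKM in the obese control, the latter below the 1 FPKM limit. It was at 3.30 ± 0.303, 2.87 ± 0.0831 and 4.04 ± 0.537 FPKM at the low, medium and high dose and 3.23 ± 0.462 FPKM in the normal control (SD, n = 3 each). By limma it fell by 1.12 ± 0.09 in the obese against the normal control (adjusted p = 4.51e-08). Against the obese control it rose by 0.95 ± 0.09 with orlistat (adjusted p = 3.71e-07) and by 1.37 ± 0.09 at the high dose (adjusted p = 6.24e-09). It also rose by 1.15 ± 0.09 at the low dose (adjusted p = 1.04e-07) and by 0.996 ± 0.09 at the medium dose (adjusted p = 3.51e-07). Cyp2b2 likewise rose at every plantain dose. It differed in direction elsewhere, being higher in the obese than in the normal control and lower with orlistat than in the obese control.

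LOC100361547, described there as like Cyp2c7 and lying near it on chromosome 1, was at 390.1 ± 33.2 FPKM with orlistat and 225 ± 21.6 FPKM in the obese control. It was at 257 ± 18.6, 284 ± 41.6 and 279 ± 10.8 FPKM at the low, medium and high dose and 225 ± 19.9 FPKM in the normal control. It rose by 0.80 ± 0.10 with orlistat (limma, adjusted p = 6.21e-06) and did not pass between the obese and the normal control (adjusted p = 0.963). Reads of this copy and of Cyp2c7 may have been split between the rows.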
